A study of Homo sapiens with 2 samples.

Results

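CP1 was 1 of 5 cell classes kept in the library of enteric crestospheres. These free-floating spheres form from detached enteric neural crest cultures that were derived from human pluripotent stem cells. The class was taken as the study's deposited annotation gives it, by selecting every day 15 cell labelled CP1. It held 208 of the 5336 cells kept at day 15, or 3.90% (95% Clopper-Pearson interval 3.39 to 4.45). The day 15 library had 6320 deposited cells in all, and both libraries together had 15947.

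Cranial placodes are thickenings of the head ectoderm that, beside the neural crest, give rise to the neurons of the cranial sensory ganglia. In placodal cells EYA proteins mark the early state, the proneural factors NEUROG1 and NEUROG2 start neurogenesis, and NEUROD1, POU4F1 and ISL1 follow as the cells leave the ectoderm and become sensory neurons. Somatostatin, the peptide encoded by SST, inhibits the release of hormones and transmitters and is made by subsets of neurons and by endocrine cells.

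The libraries came from H9, an established human embryonic stem cell line, taken through enteric neural crest induction. The day 10 sample was an adherent culture on Geltrex. The day 15 sample was a suspension culture. For it the monolayer had been detached with accutase and kept in ultra-low-attachment plates in medium with FGF2 and CHIR 99021, a GSK3 inhibitor. By the study's methods, the induction media held SB431542 and CHIR 99021, with BMP4 first and retinoic acid later. Retinoic acid was begun before day 10, was still fed on day 10, and was removed when the monolayer was detached. Of these agents, the methods list only CHIR 99021 for the crestosphere medium. Each stage had 1 library, which pooled 2 biological repeats that cannot be separated, so no p-value could be had. Between the stages, day, culture format, medium and library cannot be told apart.

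The values are counts of unique molecular identifiers (UMIs), 1 for each captured RNA molecule; those of all cells in a class were added up and expressed as CPM, the count divided by the class total and multiplied by 1e+06. Bracketed ranges are 95% intervals, exact Poisson for levels and Clopper-Pearson for shares, and both cover counting error only. A log2 ratio is on CPM + 1. CP1 summed to 2388552 UMIs, where 3 UMIs correspond to 1.26 CPM, and the median depth of its cells was 11734.5 UMIs, from 2970.5 genes. Where a class had no UMI of a gene, a fold given as a bound sets that class at 3 UMIs. Such a fold takes the other class's level as measured, without its interval, so it is not a 95% limit. The comparison classes were the enteric neural crest cells (ENCC, 4934 cells), the neuroepithelial progenitors (NEP, 104), the mesenchymal cells (Mes, 47), the other placode class (CP2, 43) and the cranial placode class of the day 10 library (CP, 324 of 7295 kept cells). Their median depths ran from 7438 UMIs in day 10 CP to 12291 in Mes. The libraries shared 102 cell barcodes, of which 5 belonged to CP1 cells and 0 of these 5 to day 10 CP. The classes were made by clustering these same cells, so a level that sets CP1 apart from another day 15 class is a description and carries no test.

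The 4 marker genes of the class were all abundant in it. SST, on the minus strand of chromosome 3 at 187668906 to 187670399 (GRCh38), was at 7858 CPM (7746 to 7971) in CP1. NEUROD1, a basic helix-loop-helix factor of neuronal differentiation, lies on the minus strand of chromosome 2 (181673088 to 181680876) and had a level of 529.6 CPM (501 to 559.6). POU4F1, also called BRN3A, a homeodomain factor of sensory neurons, lies on the minus strand of chromosome 13 (78598362 to 78603560) and had a level of 282 CPM (261 to 304). These 3 markers were higher in CP1 than in any other kept class of day 15, which the fourth was not. ELAVL3, a neuronal RNA-binding protein gene, lies on the minus strand of chromosome 19 (11451326 to 11481046) and had a level of 244 CPM (225 to 265) in CP1 and 301 CPM (249.8 to 359.7) in CP2, so it marked both placode classes.

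The start of SST is shown because SST stood furthest above the crest cells of the library in CP1, and because its cyclic AMP response element, TGACGTCA, is a classic binding site of the factor CREB. The line gives the 100 bases before the RefSeq start, 5′ to 3′ on the minus strand, chr3:187670395-187670494 (GRCh38.p14), with the element in capitals.

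SST: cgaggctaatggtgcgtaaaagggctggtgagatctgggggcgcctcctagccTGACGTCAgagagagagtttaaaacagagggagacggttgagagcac

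The element lay 47 to 40 bases before the start. Its letters, which read alike on both strands, stood within 250 bases before the start in 1.65% of 35116 RefSeq promoter windows. Among the genes tested against ENCC that had a window, 255 of 5976 (4.27%) held it, and among those at least 4-fold higher in CP1, 26 of 389 (6.68%). For an E-box, which basic helix-loop-helix factors can bind, searched as CAGCTG and also as CAGATG, whose reverse complement was counted with it, the shares were 24.5% of the tested genes and 32.9% of those higher in CP1, beside 24.3% of all windows. A gene was counted where any of its windows held the letters, so the shares of genes and of single windows are unlike measures. A match of letters describes the sequence and shows no binding.

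SST was found in nearly every CP1 cell, in uneven amounts. After each cell was thinned to 5000 UMIs, 206 of 208 CP1 cells had an SST UMI, or 99.0% (96.6 to 99.9). Before thinning the lowest cells, 2 in number, had 0, the median was 7168 CPM and the highest cell had 23946 CPM, with quartiles at 4506 and 10536 CPM. In all, 202 CP1 cells had at least 1000 CPM. In thinned cells the variance of SST was 13.7 times its mean of 38.7 UMIs.

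Apart from CP2, the kept classes had low levels of SST. It was at 56.8 CPM (54.8 to 58.8) in ENCC, 55.8 CPM (43.0 to 71.2) in NEP and 49.9 CPM (33.2 to 72.2) in Mes. At 5000 UMIs a cell, 21.9% of ENCCs, 29.8% of NEP cells and 25.5% of Mes cells had an SST UMI. In ENCC, 13 cells had at least 1000 CPM, and the 27 ENCCs outside the numbered subclusters were at 1108 CPM. The part of free RNA in these levels was not tested. CP2 was at 2868 CPM (2705 to 3039), but its cells were divided: 9 of 43 had no SST UMI, the median was 689 CPM and 16 cells had at least 1000 CPM. The log2 ratio of CP1 was 7.09 over ENCC and 1.45 over CP2.

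**Figure D1:**
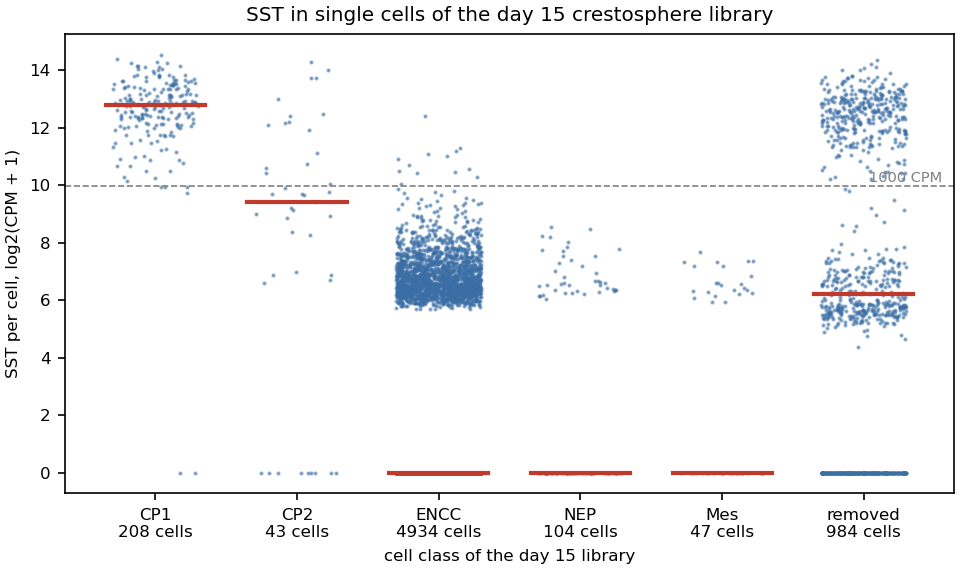
SST level of each cell in the 5 kept classes of the day 15 library and in the cells the study removed, as log2(CPM + 1); points are cells, red lines are medians and the dashed line marks 1000 CPM. CP1 cells lie around a median of 7168 CPM with 202 of 208 at or above the line, against 16 of 43 CP2 cells and 355 of 984 removed cells.

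Against ENCC, most listed neurogenic factors, sensory neuron factors, cytoskeletal genes and granule genes were at least 4-fold higher in CP1, and most ENCC markers at least 4-fold lower. Of 7603 genes with at least 10 CPM and a UMI in at least 5% of cells in either class, 537 (7.06%) were at least 4-fold higher in CP1 and 161 (2.12%) at least 4-fold lower. The median log2 ratio of the tested genes was 0.22. Scaling by TMM factors lowered the log2 ratios by 0.34, or by less for genes near 0 CPM, and gave 418 higher and 228 lower, so that the higher genes made up 64.7% of both counts in place of 76.9%. The median share of UMIs from ribosomal protein genes was 31.5% in CP1 and 44.6% in ENCC, and its part in these ratios was not tested. At a limit of 2-fold, 16.4% of the tested genes were higher in CP1.

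The 10 genes with the largest ratios over ENCC included SST, NHLH1, PPP1R17, STMN2, NEUROD1, NRN1, NEFM, ACTC1 and NEFL, with log2 ratios from 7.09 down to 6.33. NHLH1, a helix-loop-helix factor of newborn neurons, was at 399.8 CPM (375 to 426) in CP1 and 2.90 CPM in ENCC. PPP1R17, a phosphatase regulator known from cerebellar Purkinje cells, was at 546 CPM (517 to 577) in CP1 and 4.39 CPM in ENCC. Both were also several times lower in CP2, at 102 and 67.2 CPM.

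Gene lists describe the contrast by role, and a member is counted wherever its ratio passes 4-fold, whether or not it passed the filter on low values. Of 20 neurogenic factors, 12 were at least 4-fold higher than in ENCC and 0 lower, with a median log2 ratio of 3.20, and 10 of the 12 passed the filter. For the lists against ENCC, the background is 7.06% higher and 2.12% lower, shares of genes that passed the filter, so members that did not pass fall outside it. The lists were chosen with earlier results of these data known, so a list above these shares is a description and no test. A gene can also pass the filter through its level in CP1 alone. EBF1, an early B-cell factor that acts after the proneural genes, was at 181 CPM (164 to 199) in CP1 and 2.27 CPM in ENCC. INSM1, a zinc finger factor of cells entering neuronal differentiation, was at 60.3 CPM (50.8 to 71.0) in CP1 and 0.985 CPM in ENCC. HES6, an inhibitor of HES1, did not separate the classes, at 65.7 CPM in CP1 and 64.5 CPM in ENCC, and its ratio turned below 1 with TMM factors. NEUROG2 had 0 UMIs in CP1.

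Of 13 sensory neuron factors, 9 were at least 4-fold higher than in ENCC and 0 lower, with a median log2 ratio of 3.52, and 7 of the 9 passed the filter. ISL1, a LIM homeodomain factor of sensory and motor neurons, was at 285 CPM (264 to 307) in CP1 and 4.19 CPM in ENCC. POU4F2, the paralog of POU4F1, was at 27.2 CPM in CP1 and 2.49 CPM in CP2. TLX3, a homeobox factor of glutamatergic sensory neurons, was at 44.4 CPM (36.3 to 53.7) in CP1. Factors of later sensory subtypes were scarce, RUNX1 having 3 UMIs in CP1 and RUNX3 and PRDM12 0. At 5000 UMIs a cell, 151 CP1 cells had POU4F1, 150 had ISL1 and 109 had both.

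Of 14 placode regulators, 5 were at least 4-fold higher in CP1 than in ENCC and 0 lower. The median log2 ratio of the list, 0.33, was near the 0.22 of all tested genes, and it was 0.13 with TMM factors. Among the 5 were SIX4, a homeodomain factor, at 18.0 CPM, the transcriptional cofactors EYA1 and EYA2 at 15.9 and 31.0 CPM, and DACH1 at 48.6 CPM. DLX6 and FOXI3, genes of early placodal ectoderm, had 0 UMIs, and DLX3 and DLX5 had 1 each. Of 10 factors of single placodes and their neighbours, 6 had no UMI in CP1, and none reached 10 CPM.

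PAX6, a gene of lens and olfactory placodes and of neuroepithelium, differed between the placode classes. It had 0 UMIs in CP1 and was at 381 CPM (323 to 446) in CP2, which makes it at least 303-fold lower in CP1. HOX genes, which mark position along the body axis, also differed. Of 39 HOX genes, 34 had no UMI in CP1, and their sum was 9.63 CPM in CP1, 152 CPM in CP2, 124 CPM in day 10 CP and 1.34 CPM in ENCC.

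Of 25 genes of the neuronal cytoskeleton and neuronal RNA binding, 19 were at least 4-fold higher in CP1 than in ENCC and 0 lower, with a median log2 ratio of 4.28, and 18 of the 19 passed the filter. STMN2, a microtubule regulator of growth cones, was at 1543 CPM (1493 to 1593) in CP1, 14.3 CPM in ENCC and 3304 CPM (3128 to 3486) in CP2. NEFM, the medium neurofilament gene, was at 2376 CPM in CP1, 25.1 CPM in ENCC and 4475 CPM in CP2. PRPH, peripherin, an intermediate filament of peripheral neurons, was at 67.0 CPM (57.0 to 78.2) in CP1 and 744 CPM in CP2, and 139 of 208 CP1 cells had no UMI of it. On these 3 genes CP1 lay between ENCC and CP2, and so did the sum of the list, at 18455 CPM in CP1, 1802 in ENCC and 34102 in CP2.

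Of 11 secretory granule genes, 9 were at least 4-fold higher in CP1 than in ENCC and 0 lower, with a median log2 ratio of 3.38. SCG2, a granin of dense-core vesicles, was at 171 CPM (155 to 188) in CP1 and 1.34 CPM in ENCC. CPE, the carboxypeptidase that trims peptide precursors, was at 99.6 CPM in CP1 and 2.56 CPM in ENCC. The convertase genes PCSK1 and PCSK2, whose products cleave such precursors, were at 2.09 and 26.0 CPM in CP1.

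SST made up 7858 of the 8000 CPM summed over 16 neuropeptide genes in CP1. With it, 5 members were at least 4-fold higher than in ENCC, namely SST, GAL, CALCB, TAC1 and ADCYAP1, and 0 lower, and 4 of the 5 passed the filter. The median log2 ratio of the list was 0.25, or 0.00 with genes at 0 set at their bounds. GAL, galanin, was at 56.1 CPM (47.0 to 66.4) in CP1 and had no UMI in CP2, which makes it at least 7.52-fold higher in CP1. TAC1, the substance P precursor, had the other order, at 15.1 CPM (10.6 to 20.9) in CP1 and 211 CPM (169 to 261) in CP2. CALCB, which encodes a calcitonin gene-related peptide, was held by few CP1 cells: 160 of 208 had none and the highest had 24 UMIs. Of the 5 somatostatin receptor genes, 4 had no UMI in CP1 and SSTR2 was at 11.3 CPM (7.45 to 16.4).

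Of 21 synapse and transmitter genes, 9 were at least 4-fold higher in CP1 than in ENCC and 0 lower, with a median log2 ratio of 1.37, and 8 of the 9 passed the filter. SLC17A6, the vesicular glutamate transporter VGLUT2, was at 31.0 CPM (24.3 to 38.9) in CP1 and 0.412 CPM in ENCC. SLC18A3, the vesicular acetylcholine transporter, was at 13.8 CPM in CP1, while CHAT, the enzyme that makes acetylcholine, had 1 UMI. GAD1 and GAD2 of GABA synthesis, TH and DBH of catecholamine synthesis, NOS1 and TPH2 had 0 UMIs, which allows up to 1.26 CPM.

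Of 15 receptors and channels of sensory neurons, 5 were at least 4-fold higher than in ENCC and 1 lower, of which 3 and 1 passed the filter, with a median log2 ratio of 0.88. SCN3A, a sodium channel of developing neurons, was at 46.9 CPM and PIEZO2, the mechanosensitive channel of touch neurons, at 20.9 CPM. SCN10A, a channel of mature nociceptors, had 0 UMIs.

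**Figure D2:**
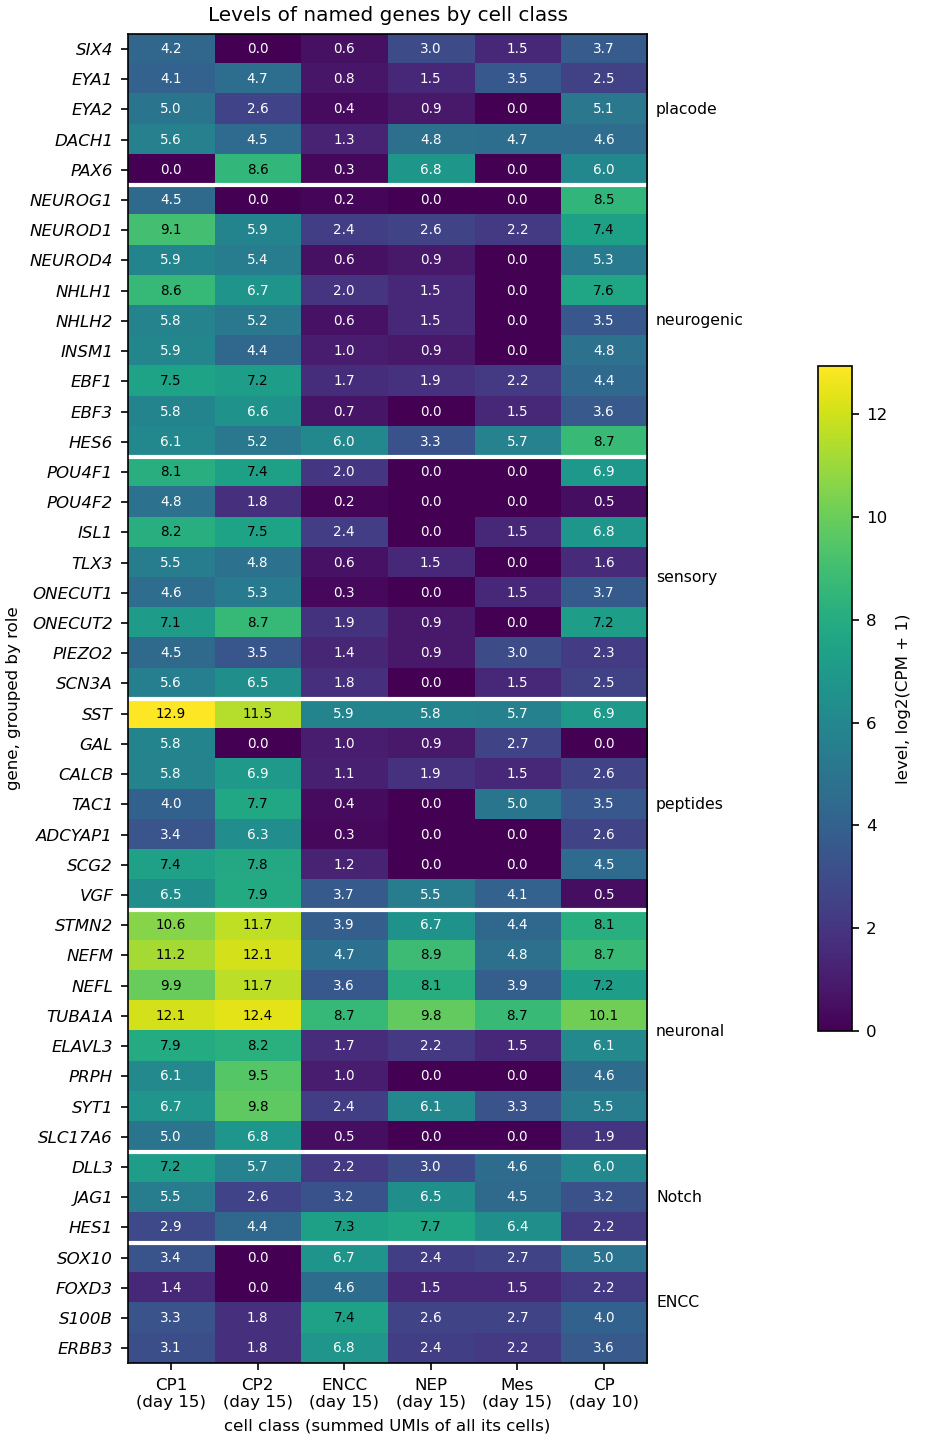
Level of 44 named genes, grouped by role, in CP1, CP2, ENCC, NEP and Mes of day 15 and in CP of day 10, as log2(CPM + 1) of the summed UMIs of each class, with the value printed in each cell. CP1 has the highest level of SST, NEUROD1, NHLH1 and POU4F1, no PAX6, and lower levels than CP2 of STMN2, NEFM and PRPH.

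Of 14 Notch pathway genes, 4 were at least 4-fold higher in CP1 than in ENCC and 3 lower, of which 2 and 2 passed the filter. DLL3, a divergent ligand that dampens Notch signalling, was at 146 CPM (131 to 162) in CP1 and 3.60 CPM in ENCC. JAG1, a ligand that activates the receptors, was at 43.1 CPM in CP1 and 8.45 CPM in ENCC. HES1, a transcriptional target of Notch in progenitors, had the lowest log2 ratio over ENCC, at 6.28 CPM (3.51 to 10.4) in CP1 and 162 CPM (159 to 165) in ENCC. The receptor gene NOTCH1 was at 2.51 CPM in CP1 and 14.9 CPM in ENCC.

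After HES1 the genes furthest below ENCC included RHOJ, WWTR1, MLANA, LINC01198, PRSS56, S100B, PLAT and MITF. RHOJ, WWTR1 and MLANA had no UMI in CP1 and were at least 16.8-, 14.7- and 14.5-fold lower there. S100B, a calcium-binding protein gene of glia, was at 8.79 CPM (5.44 to 13.4) in CP1 and 171 CPM in ENCC. Of 12 ENCC markers, 8 were at least 4-fold lower in CP1 and 0 higher, with a median log2 ratio of -3.26. SOX10, the crest and glial factor, was at 9.21 CPM (5.77 to 13.9) in CP1 and 103 CPM in ENCC. TFAP2A and TFAP2B, which placodes and crest share, were at 34.7 and 108 CPM in CP1 and 41.9 and 152 CPM in ENCC.

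A UMI of SOX10 or FOXD3, both crest factors, was found in 18 CP1 cells (8.65%), which had a median of 13253.5 UMIs against 11557 in the other 190. Without these cells, 530 genes were at least 4-fold higher than in ENCC and 175 lower. In addition, 17 CP1 cells (8.17%) had 3400 or more genes, near the upper limit of the study's filter, against 2.43% of ENCCs.

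Endocrine, forebrain, autonomic and olfactory markers were at or near 0 in CP1, whereas some markers of hair cells, non-neural ectoderm and NEP were not. Of 10 pancreatic and gut endocrine markers, 8 had no UMI in CP1, INS, GCG, PDX1 and HHEX among them, and the sum was 1.26 CPM against 0.0537 in ENCC. The 6 forebrain interneuron markers summed to 2.93 CPM in CP1 and 42.0 in ENCC, with NKX2-1 at 0. The 9 autonomic and enteric neuron markers summed to 1.26 CPM in CP1, 2.72 in ENCC and 59.7 in CP2, with PHOX2A, HAND2, TH and DBH at 0. None of these 3 lists reached 3 CPM in CP1. The 5 olfactory lineage markers summed to 0.419 CPM. Of the 6 hair cell markers, ATOH1 and GFI1 were at 0, and MYO6, a myosin of many tissues, made up 66.1 of the 73.3 CPM, against a sum of 31.6 in ENCC. Among markers of the other classes, the 8 of Mes summed to 26.4 CPM in CP1 against 152 in ENCC. The 8 of non-neural ectoderm summed to 62.8 CPM against 11.5 in ENCC, and KRT8, a keratin, gave 56.9 of it. The 6 of NEP summed to 201 CPM against 119 in ENCC, and NES, the intermediate filament nestin, gave 197 of it. The 4 pluripotency markers summed to 38.9 CPM, of which DPPA4 gave 35.6.

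The 15 genes with the largest ratios over every other kept day 15 class included C2orf91, MREG, NEUROG1, PPP1R14A, LPAR3, LDB3, LINC01314, TNC, CCL3L3, NEUROD1, GAL, THSD7B, NPR2 and INHBE. They were taken by the smallest log2 ratio over ENCC, NEP, Mes and CP2, and these ratios depend on the pseudocount and are no bounds, since most had 3 UMIs or fewer in NEP, Mes and CP2. NEUROG1 had no UMI in CP2 and was 2.81-fold higher in CP1 with CP2 set at 3 UMIs. TNC, the matrix glycoprotein tenascin C, was at 59.9 CPM (50.5 to 70.5) in CP1 and 4.98 CPM in CP2. NPR2, a natriuretic peptide receptor, was at 36.8 CPM (29.5 to 45.4) in CP1 and 0.913 CPM in ENCC. Levels in CP2 and Mes rest on 43 and 47 cells, where 3 UMIs correspond to 7.46 and 5.35 CPM.

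Of 22 axon guidance and migration genes, 8 were at least 4-fold higher than in ENCC and 2 lower, of which 5 and 1 passed the filter, with a median log2 ratio of 0.96. CXCR4, the chemokine receptor that guides migrating neuroblasts and crest cells, was at 301 CPM (279 to 323) in CP1, 48.5 CPM in ENCC and 74.6 CPM in CP2. The SLIT receptors differed from each other, ROBO2 being at 69.5 CPM in CP1 and 0.734 in ENCC, and ROBO1 at 24.3 CPM in CP1 and 50.6 in ENCC.

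**Figure D3:**
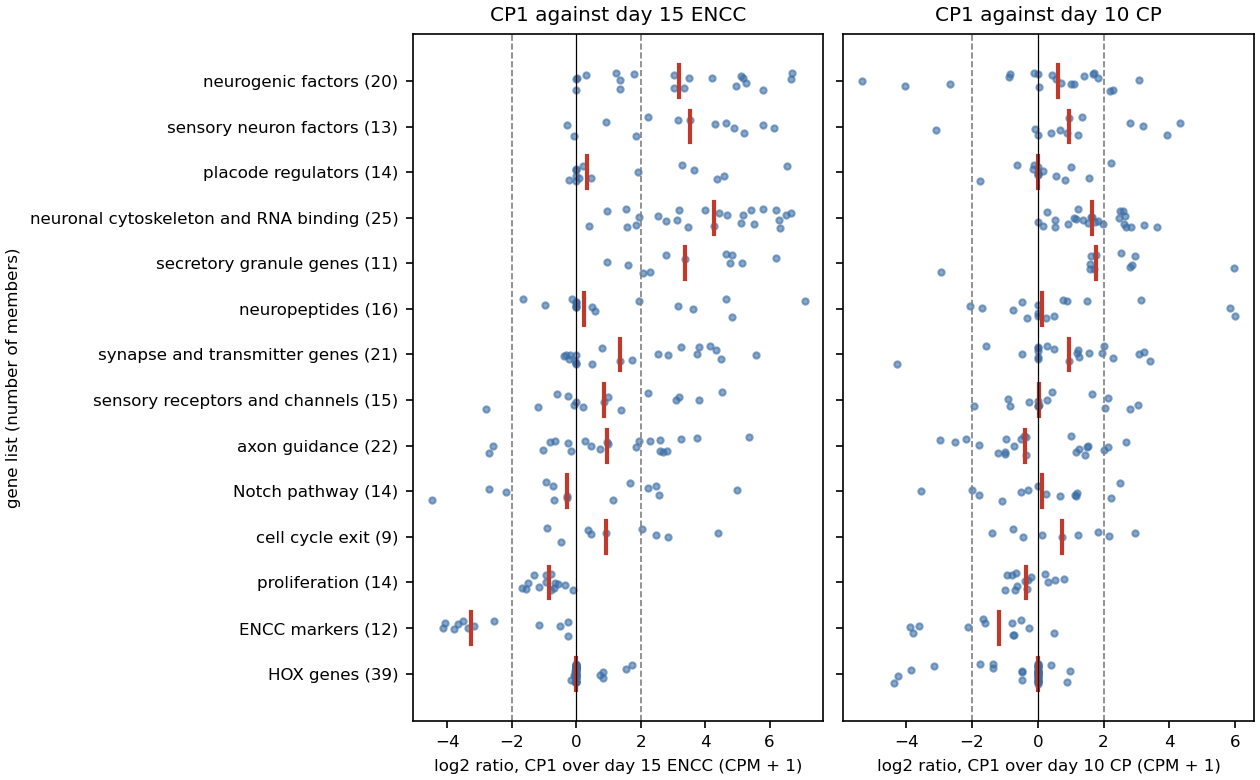
Log2 ratio, on CPM + 1, of every member of 14 gene lists in CP1 over day 15 ENCC (left) and over day 10 CP (right); points are genes, red lines are list medians and dashed lines mark 4-fold. Over ENCC the medians are 3.20 for neurogenic, 3.52 for sensory, 4.28 for cytoskeletal, 3.38 for granule and -3.26 for ENCC marker genes, and over day 10 CP they are 0.63, 0.96, 1.64, 1.77 and -1.19.

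Most CP1 cells were called G1, and a minority was called cycling. The deposited phase calls put 164 of 208 cells in G1 (78.8%, 72.7 to 84.2), 8 in S (3.85%) and 36 in G2M (17.3%, 12.4 to 23.1). The G1 share was 34.7% in ENCC, 81.7% in NEP, 25.5% in Mes and 100% (91.8 to 100) in CP2, where all 43 cells were called G1. With cells thinned to 5000 UMIs and scored again with scanpy, 71.2% of CP1 cells, 24.2% of ENCCs and all CP2 cells were called G1. The part of free RNA in these calls was not tested.

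Proliferation genes lay somewhat below ENCC, with 0 of 14 at least 4-fold higher, 0 lower and a median log2 ratio of -0.85. TOP2A, a topoisomerase of dividing cells, was at 174 CPM (157 to 191) in CP1, 297 CPM in ENCC and 7.46 CPM in CP2. At 5000 UMIs a cell, 31.2% of CP1 cells, 48.4% of ENCCs and 4.65% of CP2 cells had a TOP2A UMI. Of the 65 CP1 cells with TOP2A, 64 also had SST, 62 STMN2, 59 NEUROD1 and 49 POU4F1. NEUROD1 was found in similar shares of the cells with and without TOP2A, 90.8% and 93.7%. Among 9 genes of cell cycle control and exit, 4 were at least 4-fold higher than in ENCC and 0 lower. CDKN2D, an inhibitor of cyclin D kinases, was at 91.3 CPM (79.6 to 104) in CP1 and 11.8 CPM in ENCC.

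Levels within CP1 differed between the phases. SST was at 8579 CPM (8447 to 8713) in the 164 G1 cells and 4921 CPM (4713 to 5137) in the 36 G2M cells. NHLH1 was at 461 CPM (431 to 493) in G1 and 150.5 CPM (116 to 192) in G2M. POU4F1 had the other order, at 258 CPM (235 to 282) in G1 and 383 CPM (327 to 447) in G2M. NEUROD1 was at 528 CPM (495 to 562) in G1 and 557 CPM (489 to 633) in G2M. The cells are of 1 library, and the intervals leave out variation between cells and between cultures. How many of all genes differ as much between the phases was not counted.

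CP1 cells also varied in how much neuronal RNA they held. The sum of the 25 cytoskeletal genes ran from 14 to 202 UMIs per 5000, with a median of 91, and 103 cells lay above and 103 below it. Above the median, 96.1% of cells were called G1 and 2.91% G2M, and below it 62.1% and 31.1%. Median depth before thinning was 10804 UMIs above and 12579 below, and the median ribosomal share 28.6% and 33.2%. Of 7571 other genes that passed the filter, 1081 were at least 2-fold higher above the median than below it, and 627 lower. At 4-fold the counts were 264 and 156. The part of phase, depth and ribosomal share in the following values was not tested beyond the G1 cells.

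The upper cells held more SST, at 9153 CPM (8894 to 9418) against 6346 CPM (6130 to 6567) in the lower cells. Among G1 cells alone the values were 9216 CPM in 99 upper and 7328 CPM in 64 lower cells. NHLH1 was at 555 CPM (493 to 624) above and 260.2 CPM (218 to 308) below. Both genes were thus higher in the upper cells, whereas POU4F1 was at 268 CPM (225 to 317) above and 309 CPM (263 to 361) below. CALCB was at 85.4 CPM (62.1 to 115) above and 15.5 CPM (6.71 to 30.6) below, with a UMI in 17.5% and 7.77% of cells. The highest thinned CP1 cell had 11 CALCB UMIs, and the intervals leave out such spread between cells. SCG2 was at 291 CPM (247 to 342) above and 83.5 CPM (60.4 to 112) below. HES6 had the other order, at 36.9 CPM (22.2 to 57.6) above and 91.3 CPM (67.1 to 121) below, as had MKI67, a gene of cycling cells, at 5.83 and 83.5 CPM.

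By list, the summed level above the median was 1.95 times that below for granule genes, 1.81 times for synapse genes, 1.44 times for neurogenic factors and 1.16 times for sensory neuron factors. In G1 cells alone the ratios were 1.78, 1.72, 1.39 and 1.28. For proliferation genes the ratio was 0.262 over all cells and 0.570 in G1 cells. Marker lists of other classes also differed between the upper and lower cells. Non-neural ectoderm markers had 54 UMIs above and 10 below, a ratio of 5.40 (3.88 in G1 cells), with KRT8 giving 51 and 9. NEP markers had a ratio of 3.48 (3.58 in G1 cells), with NES giving 158 of 160 UMIs above and 44 of 46 below. Mes markers had the other order, with 6 UMIs above and 17 below. The part of cells of these classes in the split was not tested. The 8 genes furthest above in the upper cells were PTGES, KLHL35, ARFGEF3, MAPK10, LINC00693, EEF1A2, PLCL1 and AC093673.5. The 8 furthest below were PIF1, CENPA, PLCB4, CDCA2, ITGA4, CENPL, S100B and NCAPH. These 16 rest on few molecules, PTGES, a prostaglandin E synthase gene, having 21 UMIs above and 0 below.

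**Figure D4:**
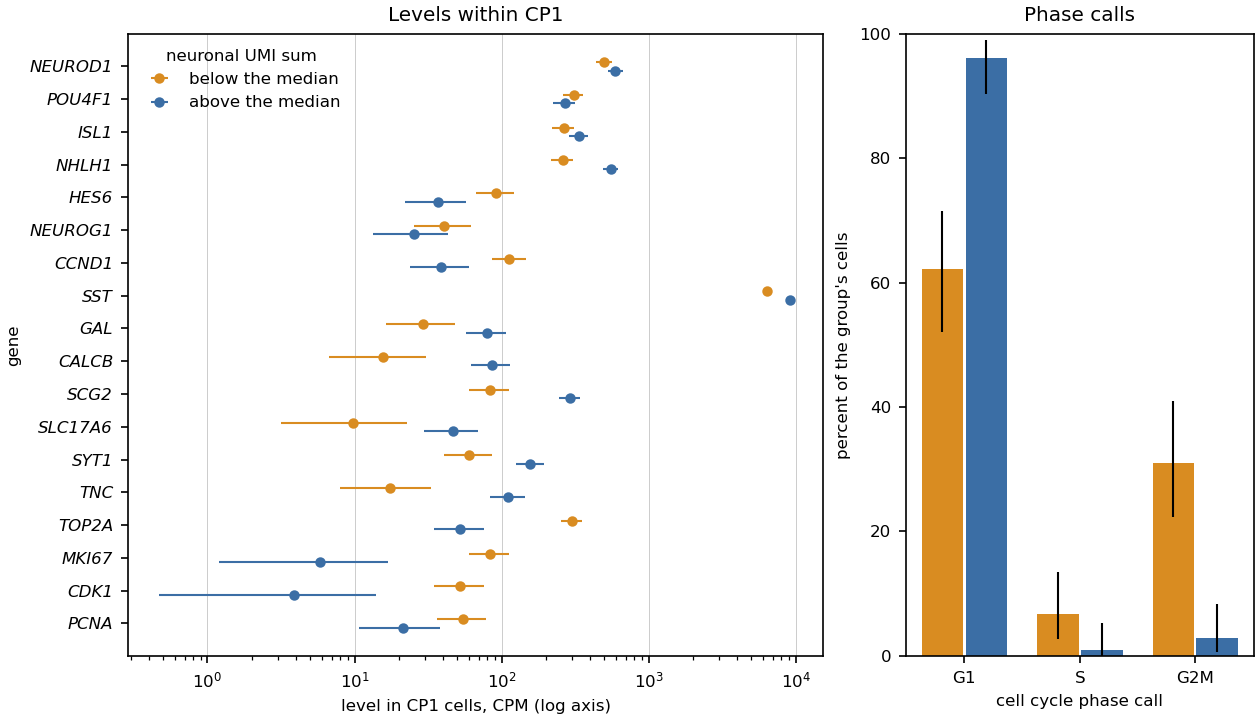
Left, level of 18 genes in CPM (log axis) in the 103 CP1 cells above (blue) and the 103 below (orange) the median neuronal UMI sum, with 95% Poisson intervals; right, percent of each group's cells by phase call, with 95% Clopper-Pearson intervals. NHLH1, SST, GAL, CALCB and SCG2 are higher in the upper cells, TOP2A and MKI67 in the lower cells, and the G2M share is 2.91% above against 31.1% below.

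The 10 genes that varied most among CP1 cells, by variance over mean in thinned cells among genes with a mean of at least 0.2 UMIs, were MALAT1, HIST1H4C, SST, TMSB4X, TUBA1A, GAPDH, BCYRN1, NEAT1, CALCB and TUBA1B. The ratio was 118 for MALAT1, a nuclear non-coding RNA, 14.9 for HIST1H4C, a histone gene of S phase, and 13.7 for SST. CALCB stood out for its few cells, with a UMI in 12.5% of thinned cells.

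Compared with the placode class of day 10, CP1 had higher levels of SST and NEUROD1 and a lower level of the proneural gene NEUROG1. Of 7718 tested genes, 443 (5.74%) were at least 4-fold higher in CP1 and 160 (2.07%) at least 4-fold lower, with a median log2 ratio of 0.09. TMM factors lowered the log2 ratios by up to 0.08 and gave 408 and 178. The 2 classes are of different libraries and median depths, 11734.5 and 7438 UMIs.

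NEUROG1 lies on the minus strand of chromosome 5 at 135534282 to 135535949. It was at 20.9 CPM (15.5 to 27.6) in CP1 and 362 CPM (339 to 386) in day 10 CP. At 5000 UMIs a cell, 13.5% of CP1 cells and 74.6% of day 10 CP cells had a UMI. HES6 was at 65.7 CPM in CP1 and 423 CPM in day 10 CP. Of the 28 thinned CP1 cells with NEUROG1, 26 also had NEUROD1 (92.9%, against 92.8% of the CP1 cells without NEUROG1) and 27 STMN2 (96.4% against 98.3%).

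NEUROD1 had the opposite order, at 529.6 CPM in CP1 and 164 CPM (149 to 181) in day 10 CP, with a UMI in 92.8% and 40.3% of thinned cells. POU4F1 was at 282 CPM in CP1 and 119 CPM in day 10 CP, and EBF1 at 181 and 20.3 CPM. Of the 20 neurogenic factors, 3 were at least 4-fold higher in CP1 than in day 10 CP and 3 lower, with a median log2 ratio of 0.63. For the lists against day 10 CP, the background is 5.74% higher and 2.07% lower, again shares of genes that passed the filter. Of the 13 sensory neuron factors, 4 were higher and 1 lower, of which 3 and 0 passed the filter, with a median of 0.96. Of the 16 neuropeptide genes, 3 were higher and 1 lower, of which 3 and 0 passed the filter, with a median of 0.13.

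SST in day 10 CP was at 122 CPM (108 to 136), against 7858 CPM in CP1. It was carried by few cells there: 300 of 324 had none, 10 had at least 1000 CPM and the highest had 25215 CPM. GAL and TNC had no UMI in day 10 CP, and GAL was at least 46.9-fold higher in CP1. The 10 genes furthest above day 10 CP were BCYRN1, SST, VGF, TNC, GAL, BTBD17, C11orf96, TRIB3, CD163L1 and ETV5, with log2 ratios from 6.09 to 4.89. BCYRN1, a neuronal non-coding RNA, was also higher in the other day 15 classes than in day 10 CP, at 182 CPM in ENCC against 7.58 CPM, so its ratio was not particular to CP1. VGF, a granin-like peptide precursor, was at 87.5 CPM (76.0 to 100.2) in CP1 and 0.399 CPM in day 10 CP.

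The 10 genes furthest below day 10 CP included PAX6, CRABP1, SPP1, GALP, LINC01198, MXRA8, ID3, MSTN and CRABP2. PAX6 was at 63.8 CPM (54.3 to 74.5) in day 10 CP and at least 50.8-fold lower in CP1. CRABP1 and CRABP2, which bind retinoic acid in the cell, were at 18.0 and 60.3 CPM in CP1 and 997 and 1391 CPM in day 10 CP. The log2 ratio of CRABP1 in CP1 over day 15 ENCC was 0.03, so its low level was not particular to CP1. ID3, an inhibitor of helix-loop-helix factors, was at 10.9 CPM (7.11 to 15.9) in CP1 and 326 CPM in day 10 CP. Of 39 HOX genes, 0 were at least 4-fold higher in CP1 and 4 lower, 3 of which passed the filter.

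By role, 9 of the 25 cytoskeletal genes were at least 4-fold higher in CP1 than in day 10 CP and 0 lower, with a median log2 ratio of 1.64. Among all genes tested against day 10 CP, 5.74% were higher and 2.07% lower. Of the 11 granule genes, 5 were higher and 1 lower, the latter being SCG5, a chaperone of a convertase, at 13.4 CPM in CP1 and 110.1 CPM in day 10 CP. Of the 21 synapse genes, 5 were higher and 1 lower, with NOS1 at 0 in CP1 and at least 14.6-fold lower. For the 14 proliferation genes the counts were 0 and 0 with a median of -0.37, and for the 14 placode regulators 1 and 0 with a median of 0.01. Among Notch genes, MFNG, a glycosyltransferase that modifies the receptors, was at 5.44 CPM in CP1 and 75.4 CPM in day 10 CP, and DLL3 at 146 and 63.8 CPM. The deposited calls put 64.5% of day 10 CP cells in G1, 18.2% in S and 17.3% in G2M.

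**Figure D5:**
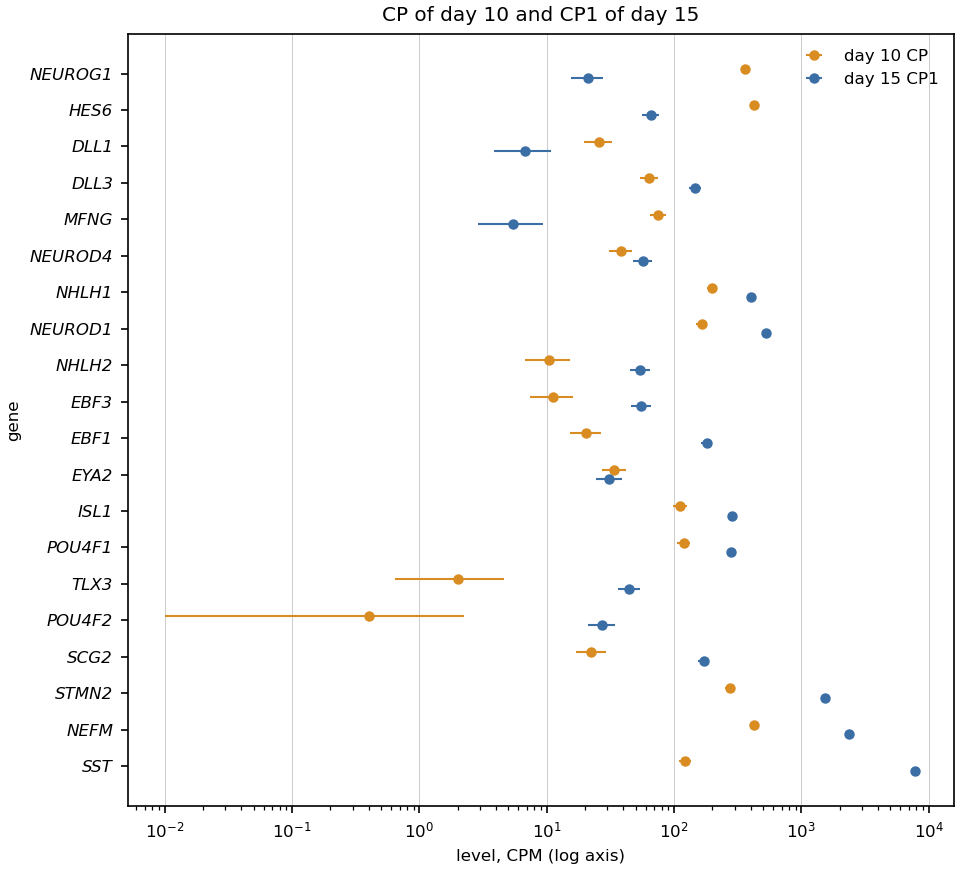
Level of 20 genes in CP of day 10 (orange) and CP1 of day 15 (blue), in CPM on a log axis; points are summed levels and bars their 95% Poisson intervals, with 1 library per stage. NEUROG1, HES6, DLL1 and MFNG lie lower in CP1, EYA2 overlaps, and SST lies furthest to the right, at 7858 CPM in CP1 against 122 CPM.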

How the data were processed

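Single-cell RNA was captured with 10x Genomics 3′ chemistry from H9-derived cultures, 1 library at day 10 and 1 at day 15. The authors deposited raw UMI counts per gene and cell (GRCh38) with a cell table that gives class, phase, and the percent of mitochondrial and ribosomal UMIs; the imputation and regression used for clustering are not in the deposited counts. The submitters' processing notes name Cell Ranger and Seurat 4.0.4, while the study's methods name kallisto and bustools. The study kept day 15 cells with over 1500 and under 3500 genes and under 20000 UMIs, and no doublet caller was run here.

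Counts were summed per class, scaled to CPM and compared as log2 ratios with a pseudocount of 1 CPM. Mitochondrial and ribosomal protein genes were left out of the tested genes. Cells were thinned to 5000 UMIs where shares were compared, which left out 41 day 10 CP cells and 0 CP1 cells. Genes were named by rule: the 15 with the largest smallest log2 ratio over the other kept classes, the 10 largest and 10 smallest over ENCC and over day 10 CP, the 10 most variable within CP1 among genes with a mean of at least 0.2 UMIs, and 8 in each direction between the upper and lower neuronal cells, besides list members. The members and lists were chosen with earlier results of these data known. Total depth was 70488169 UMIs at day 10 and 84976253 at day 15. Columns of other samples numbered 0. Python 3.11.15, numpy 2.4.6, pandas 2.3.3, scipy 1.17.1 and scanpy 1.11.5 were used, with TMM factors from edgeR 4.0.16. The calculation was tested on simulated data. Alternatives were the pseudocount, the filter, TMM factors, per-cell means, cells without SOX10 or FOXD3, G1 cells and other phase calls. Some genes that the rule names are not reported here.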

Additional observations from a re-analysis of the deposited data

Results flagged for a closer look

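The marker genes of CP1 were also present in the 984 day 15 cells that the study removed, which no comparison uses. In these cells, summed, SST was at 2970 CPM, NEUROD1 at 225 CPM, POU4F1 at 172 CPM and ELAVL3 at 126 CPM, each above its level in ENCC. Of the removed cells, 355 (36.1%) had at least 1000 CPM of SST, and all 355 had 3500 or more genes, with medians of 4644 genes and 26695 UMIs. After thinning to 5000 UMIs, 8.17% (5.54 to 11.5) of these 355 cells and 5.29% (2.67 to 9.27) of CP1 cells had a SOX10 or FOXD3 UMI.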

How the results depend on the processing

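No paired analysis was possible because each stage is 1 library, and for the same reason no replicate could be left out. No count, share or SST value changed direction under these alternatives, and no list median changed sign with TMM factors, although single genes near a ratio of 1 did, such as HES6 and EYA3 over ENCC. With a pseudocount of 5 CPM in place of 1, the genes at least 4-fold from ENCC numbered 292 higher and 71 lower (537 and 161 with 1 CPM), those from day 10 CP 218 and 79 (443 and 160), and the SST log2 ratio over ENCC was 6.99. With a minimum of 50 CPM the counts were 182 and 48 against ENCC and 164 and 44 against day 10 CP, where fewer genes were tested. Without a filter on low values, 257 genes were lower than in ENCC and 310 lower than in day 10 CP. TMM factors gave an SST log2 ratio of 6.75. The CP1 share was 3.29% of all deposited day 15 cells and, chosen after seeing the data, 8.91% of them with the removed cells of at least 1000 CPM SST counted in. The SST level was 7998 CPM without CP1 cells holding SOX10 or FOXD3 and 8579 CPM in G1 cells. The G1 share was 71.6% with scanpy phase calls. Of the list counts at 2-fold under the alternatives, 94 of 100 stayed within 1.5 times and 6 did not. Leaving out the ENCCs outside the numbered subclusters, also chosen after seeing the data, gave 539 higher and 162 lower. Depth limits genes near 1.26 CPM in CP1.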

Other observations

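The class labelled ENCC includes 27 cells that belong to none of its numbered subclusters. In them SST was at 1108 CPM and STMN2 at 451 CPM, against 56.8 and 14.3 CPM in all ENCCs, and 85.2% had an SST UMI at 5000 UMIs a cell.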
